A study of Mus musculus with 12 samples.

Results

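Transcripts of 10 proteoglycan core proteins of the heart were examined in the left ventricle of mice. Of these, 6 encode small leucine-rich proteoglycans and their relatives (Dcn, Bgn, Lum, Fmod, Ogn and Prelp), 1 encodes the large matrix proteoglycan versican (Vcan), and 3 encode syndecans, which span the cell membrane (Sdc2, Sdc3 and Sdc4). They were chosen by name from 29564 genes in the deposited tables, and all 10 were among the 14333 genes that passed the filter on low counts. Bulk polyA RNA came from 12 wild-type C57BL6 mice in 3 groups of 4, with 1 library per mouse. Control + Veh mice (libraries C1 to C4) were non-failing and received vehicle. HFpEF + Veh mice (V1 to V4) carried the HFD/L-NAME model, in which a high-fat diet and an inhibitor of nitric oxide synthase bring about heart failure with preserved ejection fraction (HFpEF), and received vehicle. HFpEF + TYA-018 mice (T1 to T4) carried the same model and received the HDAC6 inhibitor TYA-018 at 15 mg/kg. The title of the series speaks of one dose, whereas the protocol in the labels speaks of daily oral dosing for weeks. The published description has hearts collected hours after one dose, and that reading was used. The labels gave neither age nor sex nor batch, and the animal numbers of a group ran close together, so a cage or processing day that followed them cannot be told apart from the group.

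Small leucine-rich proteoglycans lie on the surface of collagen fibrils, where they regulate how fibrils assemble and how thick they grow. Decorin and biglycan carry chondroitin or dermatan sulfate chains, lumican and fibromodulin carry keratan sulfate, and the related proteins osteoglycin (Ogn) and Prelp also bind matrix components. Versican binds hyaluronan and fills the loose, swollen matrix of developing and injured tissue. Syndecans hold heparan sulfate chains at the cell surface, bind growth factors and matrix, and signal through short cytoplasmic tails. In the heart the matrix members are made mainly by fibroblasts.

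The genes are spread over 7 chromosomes (positions on GRCm38 from GENCODE). Dcn (chr10:97479609-97518143) and Lum (chr10:97565128-97572703) are neighbours, as are Prelp (chr1:133910304-133921414) and Fmod (chr1:134037254-134048277). Ogn (chr13:49608046-49624501) and Vcan (chr13:89655312-89742509) lie far apart on 1 chromosome. Bgn is X-linked (chrX:73483602-73495933), and the syndecans lie on separate chromosomes (Sdc2 at chr15:32920723-33034935, Sdc3 at chr4:130792537-130826319, Sdc4 at chr2:164424247-164443887). Of the transcript sequence of Sdc2, 3.23% of 31-base words recur in another annotated gene, the highest share of the 10 genes.

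Promoter sequences are shown for the genes that passed the test in both comparisons with HFpEF + Veh and were present in the reference table (Bgn, Prelp, Vcan and Sdc3), together with Ogn, which passed in one of them. Each sequence is the 250 bases before the annotated start in RefSeq on GRCm38.p6, written 5′ to 3′ on the strand of the gene. Of the 10 genes, 7 matched the table. Dcn, Lum and Sdc2 did not. Capitals mark matches on either strand to the GC box GGGCGG, the TATA box TATAAA, the CCAAT box CCAAT, the SMAD element CAGAC, the MCAT element CATTCC bound by TEAD factors, or the AP-1 site TGANTCA.
Bgn, chrX:73483351-73483600, plus strand: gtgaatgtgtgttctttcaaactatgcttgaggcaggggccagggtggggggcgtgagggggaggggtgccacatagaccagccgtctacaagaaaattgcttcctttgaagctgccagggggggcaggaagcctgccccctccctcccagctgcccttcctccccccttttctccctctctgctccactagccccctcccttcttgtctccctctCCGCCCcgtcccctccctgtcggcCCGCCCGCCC
Prelp, chr1:133921402-133921651, minus strand: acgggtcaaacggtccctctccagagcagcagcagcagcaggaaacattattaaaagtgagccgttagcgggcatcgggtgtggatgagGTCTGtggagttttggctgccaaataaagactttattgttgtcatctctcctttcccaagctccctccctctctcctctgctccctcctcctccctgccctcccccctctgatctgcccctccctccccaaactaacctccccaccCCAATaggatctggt
Vcan, chr13:89742513-89742762, minus strand: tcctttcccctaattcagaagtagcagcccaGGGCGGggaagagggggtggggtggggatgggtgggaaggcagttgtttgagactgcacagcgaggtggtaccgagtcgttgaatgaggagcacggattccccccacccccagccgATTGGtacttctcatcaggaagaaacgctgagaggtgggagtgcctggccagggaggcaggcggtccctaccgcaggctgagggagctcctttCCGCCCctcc
Sdc3, chr4:130792287-130792536, plus strand: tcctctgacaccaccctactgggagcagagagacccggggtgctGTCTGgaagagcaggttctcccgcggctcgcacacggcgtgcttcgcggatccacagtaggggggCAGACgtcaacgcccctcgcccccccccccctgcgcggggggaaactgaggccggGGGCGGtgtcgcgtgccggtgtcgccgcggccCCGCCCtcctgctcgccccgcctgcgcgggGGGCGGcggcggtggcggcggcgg
Ogn, chr13:49607765-49608014, plus strand: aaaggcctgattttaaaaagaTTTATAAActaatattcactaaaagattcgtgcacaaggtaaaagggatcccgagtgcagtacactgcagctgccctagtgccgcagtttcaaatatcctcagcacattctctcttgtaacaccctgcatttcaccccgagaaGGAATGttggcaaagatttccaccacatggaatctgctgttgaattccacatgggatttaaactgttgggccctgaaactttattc

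The GC box, a site for Sp and KLF factors, was found 3 times in Bgn (the last pair of matches overlap), 3 times in Sdc3, 4 times in Sdc4 and 2 times in Vcan. It was absent from these windows of Prelp, Ogn and Fmod, and 32.7% of 32851 promoters of the same length held it. Ogn alone of the 7 held the letters TATAAA, as 2 overlapping matches 229 and 227 bases before the start (12.4% of promoters). The CCAAT box was seen once in Prelp and once in Vcan (33.8%). The SMAD element was seen 2 times in Fmod, once in Prelp and 2 times in Sdc3 (42.2%), the MCAT element once in Ogn (12.6%), and the AP-1 site in none (6.75%). The GC content of the Sdc3 sequence was 76.4%, against 42% in Ogn and a median of 52.4% over all promoters. These letters are a description of the windows, and binding was not measured.

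On the scale of TPM (transcripts per M transcripts), which divides by transcript length, Dcn was the most abundant member in Control + Veh ventricles at 115 ± 21.7 TPM (SD, n = 4). Bgn followed at 33.8 ± 4.11 TPM and Ogn at 13.9 ± 1.91 TPM, and the ranges of these 3 genes did not overlap. Lum (4.74 TPM), Sdc3 (3.63 TPM), Sdc2 (3.51 TPM) and Prelp (2.86 TPM) formed a middle tier in which each neighbour overlapped the next. Vcan (1.09 TPM) and Sdc4 (0.711 TPM) overlapped as well, and Fmod was lowest at 0.0371 TPM. Dcn made up 64.2% of the summed TPM of the 10 genes in controls, 57.1% in vehicle-treated model mice and 55.4% with TYA-018, while Bgn made up 19.0%, 28.2% and 27.7%. The summed TPM was 179 ± 33.6, 213 ± 40.1 and 188 ± 20.7 in the same order.

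Libraries held between 61.2 and 83.9 M (mega) estimated counts, and the 10 genes took between 0.0679% and 0.119% of them. Ventricular cardiomyocyte markers summed to between 13000 and 22400 CPM (counts per M, TMM-scaled) and atrial muscle markers to between 62.3 and 244 CPM, as in ventricle. Mitochondrially encoded transcripts made up 43.1% to 47.7% of counts in HFpEF + Veh and 35.4% to 41.2% in the other libraries. Changes below are log2 fold changes of counts from edgeR's quasi-likelihood test with its standard error (SE), with calls at p under 0.05 after Benjamini-Hochberg adjustment across the 14333 genes.

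The first comparison asked how the model ventricle differed from the non-failing one. All 10 genes had a positive fold change in HFpEF + Veh, with a median of 0.50 (log2) against -0.01 for all genes tested, although Ogn (-0.13), Sdc2 (-0.03), Sdc3 (-0.14) and Sdc4 (-0.09) were negative on log2(TPM + 1), with an all-gene median of -0.069. Bgn, Prelp, Vcan, Sdc2 and Sdc3 were called higher, 5 of 10, where 21.2% of all genes were called and 10.9% were called higher. In the same 5 genes every HFpEF + Veh library lay above every Control + Veh library, which held for 12% of all genes. The second comparison asked what TYA-018 did in the model. Of the 10 genes, 9 had a negative fold change, with a median of -0.39 against 0.00198 for all genes (on log2(TPM + 1), with an all-gene median of 0.167, Lum, Vcan and the 3 syndecans lay between 0.10 and 0.14), and 7 were called lower (Dcn, Bgn, Ogn, Prelp, Vcan, Sdc2 and Sdc3) where 19.3% of all genes were called and 10.4% called lower. Every HFpEF + TYA-018 library lay below every HFpEF + Veh library for Dcn, Bgn, Prelp, Vcan, Sdc2, Sdc3 and Sdc4 (7 of 10, beside 13.1% of all genes). The third comparison set HFpEF + TYA-018 against Control + Veh, and here 1 of 10 was called (Bgn, higher), with 5.86% of all genes called and 3.12% called higher. For 0 of 10 were these groups free of overlap, beside 14.8% of all genes. The first and second comparisons share the HFpEF + Veh libraries, so their opposite signs are not independent of each other. Effective gene length, an estimate in the deposited tables, also enters these calls: with it as an offset the calls numbered 2 in the first comparison (Bgn and Prelp), 1 in the second (Bgn) and 0 in the third, while the share of all genes called was 10.1%, 8.52% and 1.44%. The calls numbered 2, 1 and 0 for the same genes with limma on TPM rescaled to nuclear protein-coding genes, the scale of the published methods, on which 7.95%, 5.58% and 0.733% of all tested genes were called.

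**Figure D1:**
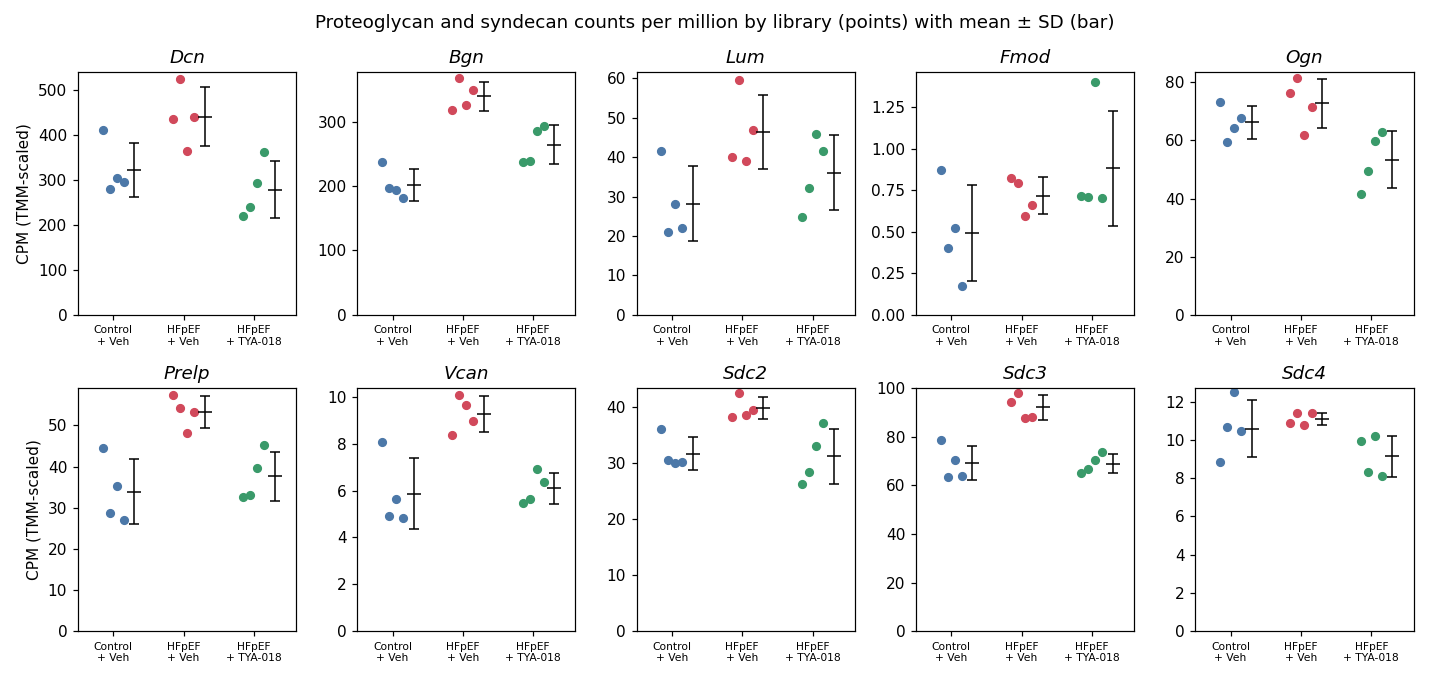
CPM of each gene (vertical axis, TMM-scaled, starting at 0) in the 3 groups (horizontal axis). Points are the 4 libraries of a group and black bars the mean ± SD. Bgn, Prelp, Vcan, Sdc2 and Sdc3 have all HFpEF + Veh points above all Control + Veh points, whereas Dcn, Lum, Fmod, Ogn and Sdc4 do not.

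**Figure D2:**
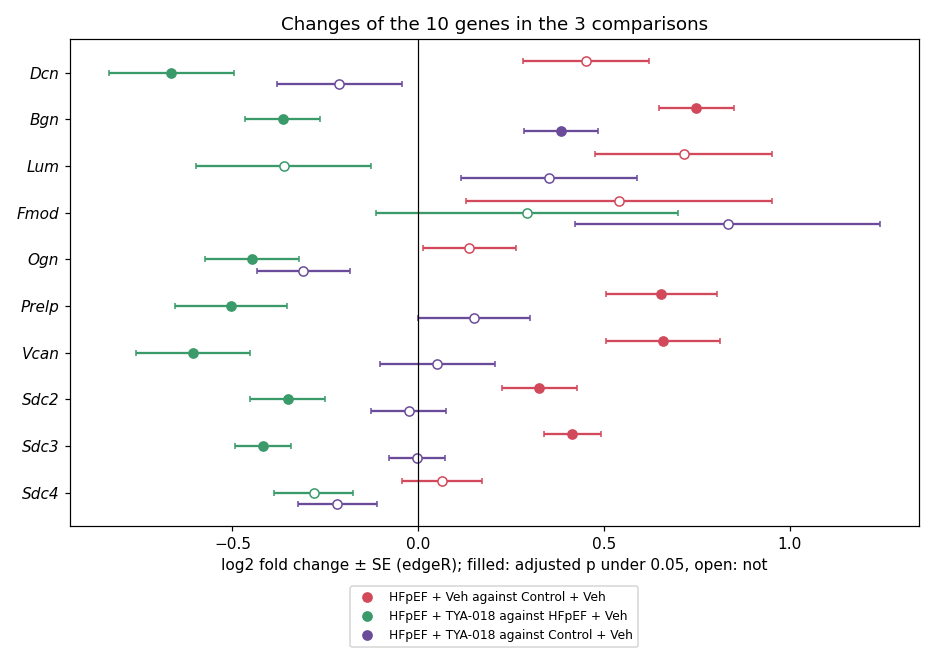
Log2 fold change (horizontal axis) ± SE of each gene (vertical axis) in the 3 comparisons, marked by colour. Filled points passed an adjusted p under 0.05. In the comparison of HFpEF + TYA-018 with Control + Veh the only filled point is Bgn at 0.38.

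Biglycan (Bgn), a fibril-binding proteoglycan that also signals to innate immune receptors when released, showed the strongest rise by adjusted p. Its CPM was 238, 197, 194 and 181 in C1 to C4, 319, 368, 326 and 349 in V1 to V4, and 238, 239, 286 and 294 in T1 to T4. The HFpEF + Veh libraries stood apart from both other groups, and 3 of 4 HFpEF + TYA-018 libraries exceeded every control. Bgn rose by 0.75 (SE 0.101, edgeR adjusted p = 0.000847, 68.1% higher) in the model and stood 0.36 lower after TYA-018 (log2 fold change -0.36, SE 0.10, adjusted p = 0.0259). It remained above Control + Veh by 0.38 (SE 0.10, adjusted p = 0.0454), a call that was lost in 11 of the 12 fits that left out 1 library and held only without C1. The rise in the model held in all 12 such fits and with effective length as an offset (1.04, adjusted p = 0.00335). The call after TYA-018 was lost without V2, V4, T1 or T2, with log2 fold changes between -0.42 and -0.32 over the 12 fits.

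Decorin (Dcn), which binds collagen and sequesters TGF-beta, had CPM of 412, 281, 305 and 296 in C1 to C4, 436, 526, 365 and 442 in V1 to V4, and 221, 241, 293 and 363 in T1 to T4. C1 stood above the other controls and overlapped the model libraries, while every HFpEF + TYA-018 library was below every HFpEF + Veh library. The model difference was 0.45 (SE 0.169, adjusted p = 0.0745) and missed the threshold. Without C1 it was 0.59 (adjusted p = 0.0206), and DESeq2 called it on all libraries (adjusted p = 0.0221). With length as an offset it was 0.32 (adjusted p = 0.339), and on rescaled TPM 0.34 (adjusted p = 0.366). On log2(TPM + 1) it was 0.07 (adjusted p = 0.834), with an all-gene median of -0.069. After TYA-018, Dcn was lower by a log2 fold change of -0.66 (SE 0.169, adjusted p = 0.0187), the largest fall among the 10 genes, although the call was lost without V2, T1 or T2. The fall kept its size but not its call with length as an offset (-0.66, adjusted p = 0.0586) and on rescaled TPM (-0.67, adjusted p = 0.0929). On log2(TPM + 1) it was -0.21 (adjusted p = 0.364), with an all-gene median of 0.167. HFpEF + TYA-018 and Control + Veh overlapped (-0.21, SE 0.168, adjusted p = 0.502).

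Prelp, which anchors basement membrane to connective tissue, had CPM of 44.4, 28.7, 35.3 and 26.9 in C1 to C4, 57.5, 54.3, 48.2 and 53.3 in V1 to V4, and 32.5, 33.0, 39.6 and 45.2 in T1 to T4. On CPM the HFpEF + Veh libraries lay above all others. The log2 fold change of Prelp was 0.65 in the model (SE 0.15, adjusted p = 0.0105). For HFpEF + TYA-018 against HFpEF + Veh it was -0.50 (SE 0.15, adjusted p = 0.0349). The second call held in 6 of 12 fits without 1 library. With length as an offset the differences were 0.72 (adjusted p = 0.00828) and -0.46 (adjusted p = 0.0534). On rescaled TPM they were 0.75 (adjusted p = 0.0227) and -0.46 (adjusted p = 0.135). On log2(TPM + 1) they were 0.40 (adjusted p = 0.159) and -0.014 (adjusted p = 0.948), with all-gene medians of -0.069 and 0.167. Mean TPM of model mice was 4.03 with vehicle and 4.01 with TYA-018. Lumican (Lum), which spaces collagen fibrils, had CPM of 41.6, 21.1, 28.1 and 22.1 in C1 to C4, 40.1, 59.6, 39.1 and 46.8 in V1 to V4, and 24.8, 32.2, 45.9 and 41.6 in T1 to T4. C1 again reached the model libraries. The model difference of 0.72 (SE 0.238) sat at the threshold with an adjusted p of 0.0502. It passed without C1 (0.96, adjusted p = 0.00788), with DESeq2 size factors (adjusted p = 0.0494), with the DESeq2 test (0.0389) and with a filter of 1 CPM in 4 libraries (0.0472). It did not pass without the filter (0.0572), with length as an offset (0.58, adjusted p = 0.164) or on rescaled TPM (0.62, adjusted p = 0.188). On log2(TPM + 1) it was 0.31 (adjusted p = 0.392), with an all-gene median of -0.069. Of the 12 fits without 1 library, 2 called it. No difference after TYA-018 was detectable for Lum (-0.36, SE 0.236, adjusted p = 0.309, and 0.11 on log2(TPM + 1), with an all-gene median of 0.167).

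Osteoglycin (Ogn), a matrix protein linked to collagen fibril growth and heart mass, was called in 1 comparison. Its CPM was 73.1, 59.5, 64.4 and 67.7 in C1 to C4, 76.2, 81.6, 61.8 and 71.6 in V1 to V4, and 41.5, 49.6, 59.8 and 62.8 in T1 to T4. Control and model libraries overlapped (0.14, SE 0.126, adjusted p = 0.466), and the value was -0.13 on log2(TPM + 1), with an all-gene median of -0.069, and 0.12 on rescaled TPM. After TYA-018 it was lower by a log2 fold change of -0.45 (SE 0.126, adjusted p = 0.0287). Of the HFpEF + TYA-018 libraries, 3 of 4 lay below every HFpEF + Veh library. The call held in 7 of 12 fits without 1 library. It was lost with length as an offset (-0.52, adjusted p = 0.12) and on rescaled TPM (-0.53, adjusted p = 0.171). On log2(TPM + 1) the difference was -0.07 (adjusted p = 0.742), with an all-gene median of 0.167. Ogn lies inside Cenpp, which is transcribed from the opposite strand. Fibromodulin (Fmod), a keratan sulfate relative of lumican that is abundant in tendon and cartilage, was close to the detection limit here, at 12 to 97 estimated counts per library. It averaged 0.492 ± 0.289, 0.717 ± 0.11 and 0.88 ± 0.346 CPM in the 3 groups and was called in no comparison (adjusted p = 0.373, 0.653 and 0.255).

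Versican (Vcan) had CPM of 8.1, 4.94, 5.66 and 4.82 in C1 to C4, 8.37, 10.1, 9.66 and 8.97 in V1 to V4, and 5.47, 5.64, 6.91 and 6.39 in T1 to T4. Every model library given vehicle lay above all others, with C1 just below V1. The log2 fold change in the model was 0.66 (SE 0.154, adjusted p = 0.0112), a call that held in all 12 fits without 1 library. Against HFpEF + Veh, Vcan was lower in HFpEF + TYA-018 (-0.61, SE 0.153, adjusted p = 0.0182), a call held in 10 of 12. Its estimated effective length ran from 982 to 4490 bases between libraries, a ratio of 4.58 that exceeded that of 95.2% of tested genes. With length as an offset the first difference kept its size but not its call (0.66, SE 0.549, adjusted p = 0.482), and the second shrank to -0.21 (adjusted p = 0.85). On log2(TPM + 1) the second was 0.14, below the median of all genes (0.167), and on rescaled TPM it was -0.15.

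Syndecan-3 (Sdc3), best known from nerve and developing muscle, had the smallest SE of the 10 genes. Its CPM was 78.6, 63.6, 70.4 and 63.8 in C1 to C4, 94.4, 98.3, 87.7 and 88.4 in V1 to V4, and 65.0, 66.7, 70.5 and 73.8 in T1 to T4. The model libraries stood clear of both other groups. The log2 fold change of Sdc3 was 0.42 in the model (SE 0.0758, adjusted p = 0.00333). It was -0.42 for HFpEF + TYA-018 against HFpEF + Veh (SE 0.0757, adjusted p = 0.00419). Both calls held in all 12 fits that left out 1 library. HFpEF + TYA-018 differed from Control + Veh by -0.0027 (SE 0.0757). These values rest on counts alone: the estimated effective length of Sdc3 was 3750 bases in C1, the shortest of 12, and up to 11900 bases in another library. With length as an offset the model difference was -0.13 (SE 0.333, adjusted p = 0.841), and the difference after TYA-018 was -0.29 (adjusted p = 0.639). On rescaled TPM they were 0.11 and -0.28. On log2(TPM + 1) they were -0.14 and 0.12, both below the median of all genes on that scale (-0.069 and 0.167).

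Syndecan-2 (Sdc2), the main syndecan of fibroblasts and other mesenchymal cells, had CPM of 36.2, 30.5, 30.0 and 30.2 in C1 to C4, 38.3, 42.6, 38.6 and 39.5 in V1 to V4, and 26.2, 28.4, 33.0 and 37.1 in T1 to T4. The model libraries lay above all others, but C1 and T4 came close. The log2 fold change of Sdc2 was 0.33 in the model (SE 0.101, adjusted p = 0.039). It was -0.35 for HFpEF + TYA-018 against HFpEF + Veh (SE 0.101, adjusted p = 0.0315). These calls held in 5 and 6 of 12 fits without 1 library. Both were lost with length as an offset (0.19, adjusted p = 0.427, and -0.31, adjusted p = 0.19). Syndecan-4 (Sdc4), a component of focal adhesions that responds to injury, averaged 10.6 ± 1.5, 11.1 ± 0.334 and 9.15 ± 1.09 CPM. It was not called in the model (0.06, SE 0.107, adjusted p = 0.712). All 4 HFpEF + TYA-018 libraries lay below all HFpEF + Veh libraries, yet the difference of -0.28 (SE 0.107, adjusted p = 0.0857) missed the threshold. On the log2(TPM + 1) scale Sdc2 and Sdc4 changed sign in both comparisons, to -0.03 and -0.09 in the model and to 0.10 and 0.13 after TYA-018, with an all-gene median of -0.069 and 0.167. After rescaling TPM to nuclear protein-coding genes their signs matched those of the counts.

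**Figure D3:**
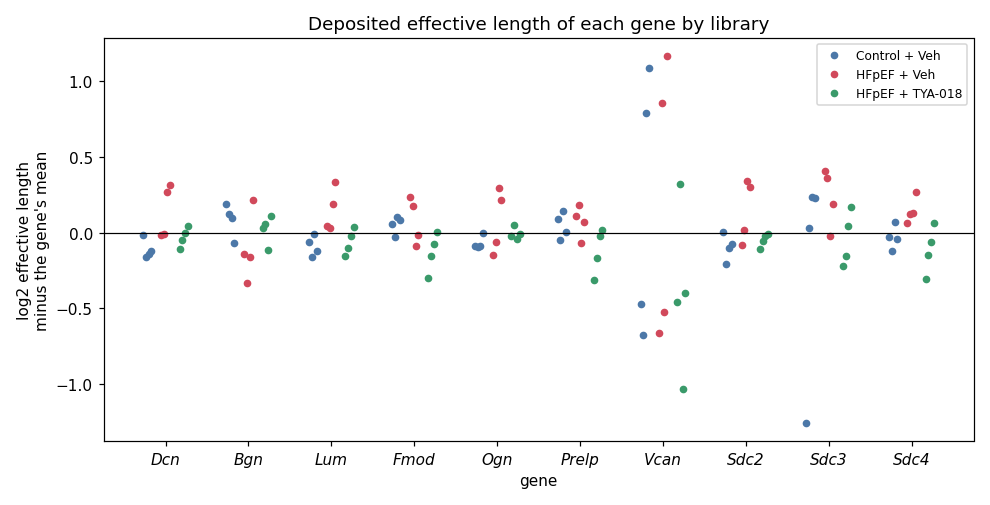
Log2 of the deposited effective length of each gene minus its mean over 12 libraries (vertical axis), by gene (horizontal axis) and group (colour). Vcan spans more than the other genes, and 1 Control + Veh library of Sdc3 (C1, 3750 bases) lies far below the rest.

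Single libraries carried much of the spread. C1 was the highest control for 9 of 10 genes and the lowest for Sdc4. V2 was the highest HFpEF + Veh library for 8, and T1 the lowest HFpEF + TYA-018 library for 8. Without C1 the first comparison called 7 of the 10 genes, with 27.5% of all genes called. The second comparison called 1 without T1 (10.2% of all genes), 1 without T2 (11.2%), 2 without V2 (14%), 3 without V4 (13.3%) and 4 without V1 (13.8%), beside 19.3% with every library. Sdc3 was the gene that kept its call in each of these fits.

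**Figure D4:**
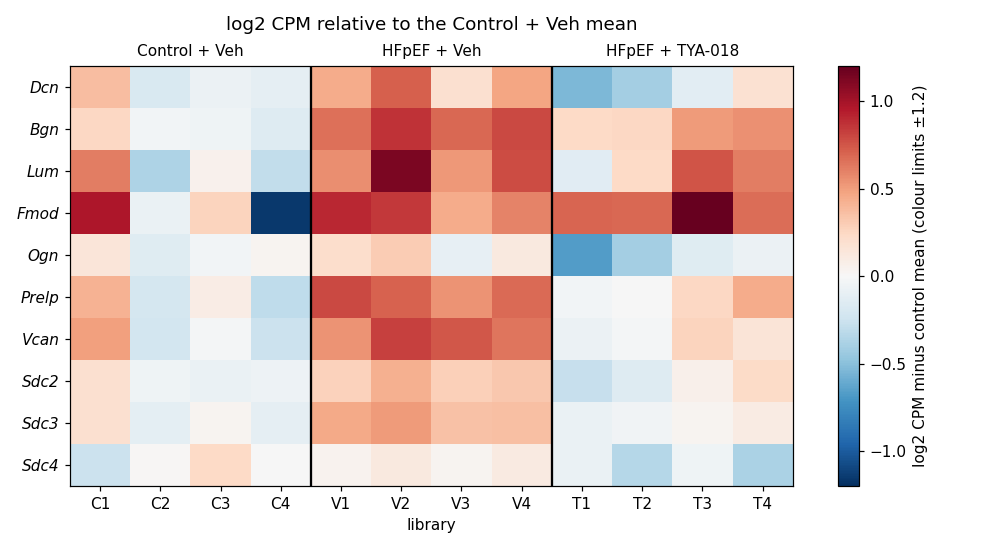
Log2 CPM of each gene (rows) in each library (columns) minus the Control + Veh mean, with red above and blue below. HFpEF + Veh columns are red for most genes, and C1 is red for every gene but Sdc4. T1 is the lowest HFpEF + TYA-018 column for 8 of 10 genes.

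Marker genes of several cell types moved with the members. Beside the counts below, 21.2% of all genes were called in the model and 19.3% after TYA-018. The 7 fibroblast markers summed to 142 to 181 CPM in Control + Veh, 207 to 273 in HFpEF + Veh and 168 to 188 in HFpEF + TYA-018, and 4 of 7 were called higher in the model and 4 of 7 lower after TYA-018. Endothelial markers behaved alike (537 to 669, 715 to 879 and 523 to 680 CPM, with 3 of 4 called higher in the model and 3 of 4 lower after TYA-018), as did the 3 macrophage markers present (46.9 to 56, 66.4 to 86.5 and 50.1 to 58.4 CPM, 3 called higher and 1 lower). Red cell transcripts summed to 1550 to 2310, 4780 to 14100 and 2300 to 3570 CPM, with 5 of 5 called in both directions. Ventricular cardiomyocyte markers were lower in the model (3 of 5 called) and higher after TYA-018 (2 of 5 called). Smooth muscle and valve or tendon-like fibroblast markers had no call, and epicardial markers summed to at most 12.3 CPM with 2 of 6 tested and 1 called in each of the first 2 comparisons. Pericyte markers summed to 603 to 668, 732 to 770 and 534 to 646 CPM, with 1 of 4 called higher in the model and 1 of 4 lower after TYA-018. Fat cell markers summed to at most 1.36 CPM. The part of these shifts in the members' values was not tested, and bulk counts cannot separate fewer cells of a type from less RNA per cell.

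The rest of the proteoglycan pathway was covered by 127 listed genes, of which 106 were tested. In the model 24 of 106 (22.6%, beside 21.2% of all genes) were called, 23 of them higher, with a median log2 fold change of 0.26. After TYA-018 30 were called (28.3%, beside 19.3%), 28 of them lower, with a median of -0.28. Of all genes, 10.9% were called higher in the model and 10.4% lower after TYA-018. Against Control + Veh, HFpEF + TYA-018 had 4 called, all higher (3.77%, beside 5.86%). With effective length as an offset these counts were 12, 10 and 1 of 106, beside 10.1%, 8.52% and 1.44% of all genes. On log2(TPM + 1) the calls after TYA-018 numbered 6 of 106, all higher, beside 16% of all genes called.

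Among 7 other tested genes of the leucine-rich family, asporin (Aspn), which binds collagen near the site used by decorin, rose from 17.2 to 31.2 CPM (0.86, adjusted p = 0.0122) and was 16.4 CPM after TYA-018 (-0.93, adjusted p = 0.00934). Ecm2 was lower after TYA-018 (-0.48, adjusted p = 0.00805). Several family members sit side by side in the genome: Ecm2, Aspn, Omd and Ogn on chromosome 13, Dcn and Lum on chromosome 10 with 47.0 kb between them, and Optc, Prelp and Fmod on chromosome 1 (GRCm38). Omd (group means of 0.206 to 0.575 CPM) and Optc (0.163 to 0.254 CPM) were too low for a comparison with their neighbours.

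Of 11 other secreted proteoglycans, 4 were called higher in the model and 5 lower after TYA-018, beside 10.9% and 10.4% of all genes. Perlecan (Hspg2), the heparan sulfate proteoglycan of basement membranes, rose from 409 ± 28.9 to 489 ± 12.3 CPM (0.26, adjusted p = 0.0159) and was 399 ± 22.4 CPM after TYA-018 (-0.29, adjusted p = 0.00992). Lubricin (Prg4) went from 12.3 to 21.0 and 13.1 CPM (adjusted p = 0.00659 and 0.0132). Col15a1, a basement membrane zone collagen with chondroitin sulfate, rose by 0.59 (adjusted p = 0.00805), and Spock2 by 0.90 (adjusted p = 0.0456). Serglycin (Srgn), the granule proteoglycan of blood cells, was lower after TYA-018 (-0.64, adjusted p = 0.0114).

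The membrane proteoglycans other than these syndecans included an exception. Glypican-1 (Gpc1), a heparan sulfate proteoglycan tethered by a lipid anchor, had 178 ± 7.86 CPM in C1 to C4, 177 ± 10.6 in V1 to V4, and 237 ± 7.8 in T1 to T4. It was higher after TYA-018 than in either other group (0.42 in both, adjusted p = 0.0014 and 0.00378). Syndecan-1 (Sdc1, -0.38, adjusted p = 0.0343) and betaglycan (Tgfbr3, -0.30, adjusted p = 0.0444) were lower after TYA-018, and Cd44 rose in the model (0.44, adjusted p = 0.0479). Of the cytoplasmic partners of syndecans, 1 of 6 was called in the model, beside 21.2% of all genes. It was syntenin (Sdcbp), which rose (0.37, adjusted p = 0.025).

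In both comparisons with HFpEF + Veh, some of the enzymes that build or modify the chains were called. Beside their counts, 21.2% of all genes were called in the model (10.9% higher) and 19.3% after TYA-018 (10.4% lower). Of 19 tested for the linker and chain backbone, 3 rose in the model, namely the heparan sulfate polymerase Ext1 (20.0 to 25.8 CPM, adjusted p = 0.00702), the chondroitin polymerizing factor Chpf (adjusted p = 0.0146) and Ugdh, which makes UDP-glucuronate (adjusted p = 0.0242). After TYA-018, 5 were lower, among them Csgalnact1, which starts chondroitin chains (-0.81, adjusted p = 0.00237), and Ugdh (-0.48, adjusted p = 0.00821), while Extl1 was higher (0.33, adjusted p = 0.0132). Extl1 and Chpf exceeded Control + Veh after TYA-018 (adjusted p = 0.0124 and 0.0185). Of 23 tested for sulfation and epimerisation, 7 were called higher in the model, including the chondroitin sulfotransferase Chst11 (0.49, adjusted p = 0.00664), the heparan sulfate endosulfatase Sulf2 (0.30, adjusted p = 0.0129) and the dermatan sulfate epimerase Dse (0.67, adjusted p = 0.015). After TYA-018, 7 were lower, including the heparan sulfate epimerase Glce (-0.55, adjusted p = 0.00534), Chst12 (-0.60, adjusted p = 0.00583) and Sulf1 (-0.72, adjusted p = 0.0202).

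Of 10 tested hyaluronan genes, 3 were called higher and 1 lower in the model, where 21.2% of all genes were called. Lyve1, a hyaluronan receptor of lymphatic vessels and some macrophages, went from 14.3 ± 2.65 to 21.5 ± 2.9 and 9.91 ± 1.89 CPM (0.59, adjusted p = 0.0183, then -1.12, adjusted p = 0.00137). The hyaluronidase Hyal2 rose by 0.33 (adjusted p = 0.00399) and was lower by -0.29 on the log2 scale after TYA-018 (adjusted p = 0.00784). The hyaluronan synthase Has3 was lower in the model (-1.06, adjusted p = 0.00507, 1.27 against 0.611 CPM). Hmmr, a hyaluronan receptor of dividing cells, was near the floor, at 0.134 ± 0.0873, 1.67 ± 1.14 and 0.795 ± 0.307 CPM, and exceeded Control + Veh in both other groups (adjusted p = 0.00234 and 0.0316). Of 20 tested genes for breakdown of core proteins and chains, 3 were called, all higher, in the model, beside 21.2% of all genes (10.9% higher). They were the versican-cleaving proteases Adamts9 (22.5 to 35.8 CPM, adjusted p = 0.00622) and Adamts15 (4.1 to 5.8 CPM, adjusted p = 0.00903) and the sulfatase Arsb (adjusted p = 0.0194). After TYA-018, 5 were called, all lower, beside 19.3% of all genes (10.4% lower). Among them were Adamts15 (-0.87, adjusted p = 0.00102), Adamts9 (-0.65, adjusted p = 0.00835) and the sulfatase Ids (-0.53, adjusted p = 0.0312).

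**Figure D5:**
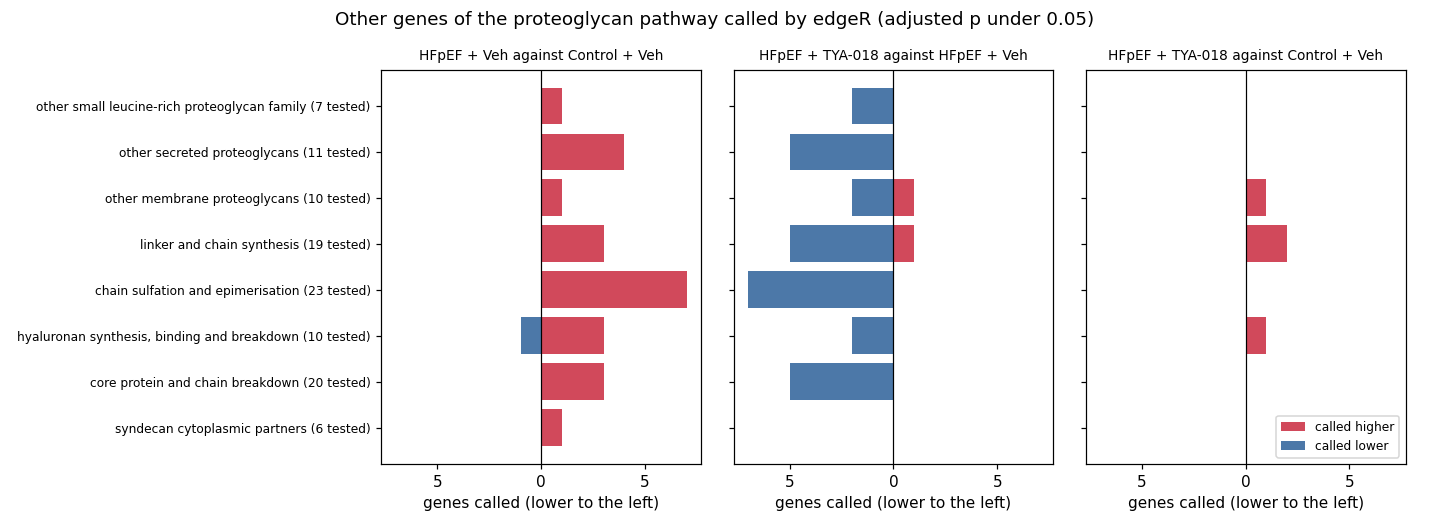
Number of other proteoglycan pathway genes called by edgeR (horizontal axis, lower to the left and higher to the right) in each list (vertical axis) for the 3 comparisons. Calls are mostly higher in the model (23 of 24) and lower after TYA-018 (28 of 30). Of all genes, 10.9% were called higher in the model and 10.4% lower after TYA-018.

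The gene with the profile nearest to each of 9 members was found over 12 libraries, as the Euclidean distance between log2 CPM scaled to SD 1 per gene. The median distance from a member to all tested genes was between 4.68 and 4.76. Sepp1 was nearest to Dcn (0.562), Col1a1 to Bgn (0.595), Col8a1 to Lum (0.941), Tmx3 to Ogn (0.862) and Arsb to Prelp (0.601). Timp2 was nearest to Vcan (0.833), Aspn to Sdc2 (0.587) and Rac1 to Sdc3 (0.586). Sdc4 had no near match (Nmt2, 1.75). Among the members themselves Dcn and Sdc2 were closest (0.990), and the nearest member to Sdc4 was Ogn at 3.77. The 12 points of each profile share library and group, so these distances are a description.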

How the data were processed

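Left ventricular polyA RNA of 12 mice was sequenced with a stranded Illumina mRNA kit. Per the published methods, the authors trimmed reads with fastp, quantified them with Salmon 1.6.0 against GENCODE mouse transcripts (GRCm38) and summarised them by gene with tximport. The labels name hg38, and they and the methods disagree on read length and layout. Whether counting used strand is not given in the sources used here. The deposited tables hold estimated counts (not normalised), the deposited TPM values, and the authors' other table, effective gene lengths in bases, for 29564 genes. No column was left out (0 columns not used).

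Estimated counts were rounded, scaled by TMM, filtered with filterByExpr (14333 genes) and tested with edgeR 4.0.16 (R 4.3.3): 1 quasi-likelihood model of 12 libraries, 9 residual degrees of freedom, two-sided F tests, Benjamini-Hochberg adjustment over all tested genes, threshold 0.05. SE is the log2 fold change divided by the square root of F. CPM are TMM-scaled. Alternatives used DESeq2 1.42.0, limma 3.58.1 on log2(TPM + 1) and log2(TPM + 0.1), effective lengths as offset, other filters, and each library left out. Depth was 61.2 to 83.9 M estimated counts. Replicates are separate mice.

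The genes and lists were chosen with earlier results of these data known. All 10 members are named, with, per list and comparison, up to 3 called pathway genes of smallest adjusted p (all, if 4 or fewer were called). Promoters come from RefSeq (GRCm38.p6). Overlapping genes on the opposite strand were present for Ogn, Prelp, Vcan and Sdc3. The gene nearest in profile to Fmod is not reported here.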

Additional observations from a re-analysis of the deposited data

Results flagged for a closer look

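Of 30 groups of 4 libraries (10 genes in 3 groups), 2 held a library that stood far from the other 3 by Dixon's criterion, and chance flags about 1 in 20 groups. Fmod in T3 was 1.4 CPM, against 0.7 to 0.712 CPM in the other HFpEF + TYA-018 libraries (gap over range 0.983). Sdc2 in C1 was 36.2 CPM, against 30.0 to 30.5 CPM in the other Control + Veh libraries (gap over range 0.926). C1 was also the highest control for 8 further genes.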

How the results depend on the processing

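No paired analysis was possible because the groups held separate mice, with no animal number shared between them. In the order of the report (model against control, TYA-018 against vehicle in the model, TYA-018 in the model against control), edgeR called 5, 7 and 1 of the 10 members and 24, 30 and 4 of the other pathway genes. With effective lengths as an offset these were 2, 1 and 0 members and 12, 10 and 1 of 106 others, with 10.1%, 8.52% and 1.44% of all genes called. On log2(TPM + 1) they were 1, 0 and 0 members and 0, 6 and 1 others, with 1.2%, 16% and 0.0628% of all genes called. On log2(TPM + 0.1) they were 1, 0 and 0 members and 1, 7 and 0 others, with 2.1%, 18.3% and 0.0767% of all genes called. Rescaled TPM gave 2, 1 and 0 members and 6, 4 and 0 of 105 others, with 7.95%, 5.58% and 0.733% of all genes called. On log2(TPM + 1) and log2(TPM + 0.1) the 6 and 7 others of the second comparison were all higher, against 2 higher and 28 lower in the counts. Over all genes, log2(TPM + 1) called 2228 higher and 68 lower there. Bgn in the third comparison was not called without the filter or in a fit of the 2 groups alone (0 members each). In those settings 2.84% and 4.04% of all genes were called there. DESeq2 called 8 of 106 other genes there, 4 higher and 4 lower, beside 10.6% of all genes. The causes were not tested. Leaving out 1 library gave 4 to 7, 1 to 8 and 0 to 1 members, and 14 (without C4) to 38 (without C1), 15 (without T1 or V2) to 35, and 3 to 6 others. Over the same fits 13.7% to 27.5%, 10.2% to 22.4% and 2.12% to 5.58% of all genes were called. In the first comparison these extremes were also the fits without C4 and without C1.

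Signs turned as follows, on scales that also moved the median of all genes (log2(TPM + 1): -0.069, 0.167 and 0.0805). In HFpEF + Veh against Control + Veh, lengths as offset gave -0.13 for Sdc3 and -0.025 for Sdc4. There log2(TPM + 1) gave -0.13 for Ogn, -0.032 for Sdc2, -0.14 for Sdc3 and -0.093 for Sdc4, and log2(TPM + 0.1) gave -0.14, -0.042, -0.14 and -0.20. In HFpEF + TYA-018 against HFpEF + Veh, log2(TPM + 1) gave 0.11 for Lum, 0.14 for Vcan, 0.10 for Sdc2, 0.12 for Sdc3 and 0.13 for Sdc4, and log2(TPM + 0.1) gave 0.13, 0.26, 0.13, 0.15 and 0.24. Against Control + Veh, log2(TPM + 1) gave 0.068 for Sdc2 and 0.032 for Sdc4, log2(TPM + 0.1) gave 0.085 for Sdc2, 0.013 for Sdc3 and 0.038 for Sdc4, and Sdc3 was 0.0022 without the filter and 0.0064 in a fit of 2 groups. The median of all genes moved to -0.171, 0.344 and 0.173 on log2(TPM + 0.1). Without 1 library, Sdc4 ran from -0.016 to 0.15 in the first comparison, Fmod from -0.021 to 0.39 in the second, and Sdc2 from -0.12 to 0.051, Sdc3 from -0.040 to 0.065 and Vcan from -0.033 to 0.25 in the third.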

Other observations

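The ratio of Bgn to Dcn counts, chosen after the values were seen and given with no test, was 0.578, 0.701, 0.637 and 0.61 in C1 to C4, 0.731, 0.699, 0.892 and 0.788 in V1 to V4, and 1.08, 0.992, 0.978 and 0.812 in T1 to T4. The mean ratio of counts was 0.965 ± 0.111 (SD, n = 4) in HFpEF + TYA-018, against 0.632 ± 0.0522 in Control + Veh and 0.778 ± 0.0848 in HFpEF + Veh. HFpEF + TYA-018 libraries lay above all Control + Veh libraries, and T4 overlapped the HFpEF + Veh libraries. On TPM, an alternative added after seeing the data that divides by effective length, the ratio averaged 0.296 ± 0.0207 in C1 to C4, 0.499 ± 0.0977 in V1 to V4 and 0.502 ± 0.0636 in T1 to T4, so the step between the model groups was seen on counts and not on TPM.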
